A study of Mus musculus with 11 samples.

Results

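The BCL2 family genes that set whether mitochondria release cytochrome c were followed in isolated mouse hepatocytes that lacked or kept the transcription factor XBP1. The members are a list of names: the effectors *Bax* and *Bak1*, the anti-apoptotic *Bcl2*, *Bcl2l1* and *Mcl1*, and the BH3-only genes *Bcl2l11*, *Bbc3*, *Pmaip1*, *Bid* and *Bad*. These are 10 of the 54232 gene identifiers counted. All 10 were found, and 8 of them were among the 13303 genes that passed the filter on low counts. *Bcl2* and *Pmaip1* did not. Hepatocytes came from adult male C57BL/6 mice, either *Xbp1* fl/fl controls, which carry *Xbp1* alleles with loxP sites but no Cre, or *Xbp1* LKO mice, in which Cre recombinase driven by the albumin promoter deletes the floxed part of *Xbp1* in the liver. Mice of both genotypes received standard chow or the HFS diet, a Western diet rich in fat and sugar with fructose and glucose in the drinking water, for up to 6 weeks. The 4 groups were chow-fed *Xbp1* fl/fl (3 libraries), chow-fed *Xbp1* LKO (2 libraries), HFS-fed *Xbp1* fl/fl (3 libraries) and HFS-fed *Xbp1* LKO (3 libraries). Each HFS library pooled 2 mice and each chow library held 1, so diet and pooling cannot be told apart.

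In the mitochondrial pathway of apoptosis, BAX and BAK1 form pores in the outer mitochondrial membrane, and BCL2, BCL-XL (from *Bcl2l1*) and MCL1 hold them in check. BH3-only proteins bind the anti-apoptotic members or act on the effectors directly. In hepatocytes, loss of MCL1 or BCL-XL is known to cause spontaneous apoptosis, and BIM (from *Bcl2l11*) and PUMA (from *Bbc3*) are known as mediators of death under endoplasmic reticulum stress. Many of these proteins are controlled after transcription, by cleavage, phosphorylation or turnover, which counts of mRNA do not show.

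*Bax*, a pore-forming effector, and *Bcl2l11*, the BIM gene, were higher in every *Xbp1* LKO library than in every *Xbp1* fl/fl library. In either direction, 7.53% of all genes separated the genotypes in this way. On HFS, *Bax* rose 1.63-fold and *Bcl2l11* 1.72-fold, and both passed the test, as did 4.08% of all genes. The HFS call of *Bax* was lost on leaving out any HFS library, and that of *Bcl2l11* on leaving out any 1 of 4 of them. On chow, the values were 1.55-fold and 1.49-fold and did not pass. *Mcl1* was higher and *Bbc3*, the PUMA gene, was lower in every HFS library than in every chow library, whichever the genotype. *Bid* was also higher, by a narrow margin, and 1.48% of all genes separated the diets in this way. By edgeR, none of these members was called for diet within either genotype. Averaged over both genotypes only *Mcl1* was called, and that call was lost on leaving out any library. Diet and pooling of mice cannot be told apart. No member other than *Bax* and *Bcl2l11* was called between genotypes.

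Libraries held 19191032 to 23888401 counts. Over all genes together, the variance between replicate libraries exceeded that of counting by 27.9 to 102 times. Genes with high counts weigh most in this value, and it was not computed for the members. No counting intervals are given, apart from an upper limit for *Pmaip1*. *Xbp1* itself was at 194 to 301 CPM (counts scaled to a common library size) in the 6 *Xbp1* fl/fl libraries and at 95.7 to 135 CPM in the 5 *Xbp1* LKO libraries, without overlap. The counts cover the whole gene, so transcripts without the deleted part still count. The summed level of 10 hepatocyte marker genes was 125777 to 159891 CPM in chow-fed and 98333 to 119169 CPM in HFS-fed *Xbp1* fl/fl libraries. It was lower in *Xbp1* LKO, at 34285 and 65656 CPM on chow and 49727 to 78715 CPM on HFS. *Alb*, the albumin gene that defines hepatocytes, had at least 320899 counts in every library. It was the largest part of this sum, at 86732 to 119367 CPM in chow-fed *Xbp1* fl/fl and 14021 and 34259 CPM in chow-fed *Xbp1* LKO. The sum thus mainly follows *Alb*. Between genotypes, the log2 fold changes of the 10 genes ran from -2.14 to 0.54 on chow and from -1.45 to 1.17 on HFS. On each diet, 9 were negative and 1 was positive. In bulk samples, fewer cells of a type and less RNA per cell cannot be told apart. Markers of other liver cells summed to far less, and their values are given beside the results below.

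Of the 8 members tested, 0 were called for genotype on chow, 2 on HFS (*Bax* and *Bcl2l11*) and the same 2 for genotype averaged over both diets. Over all 13303 genes tested, 4.75%, 4.08% and 11.9% were called in these 3 comparisons (edgeR quasi-likelihood test, Benjamini-Hochberg adjusted p under 0.05). On chow, 2 of the 8 had an unadjusted p under 0.05, as did 19.3% of all genes, and DESeq2 called 1, *Bax*, and 8.17% of all genes. A p that missed the threshold does not show that a member did not differ. The diet comparison called 0 members in *Xbp1* fl/fl and 0 in *Xbp1* LKO, where 0.428% and 0.0601% of all genes were called. Unadjusted, 5 and 2 members had p under 0.05, beside 8.95% and 12.7% of all genes. DESeq2 called 0 and 2 members (*Mcl1* and *Bbc3*), beside 1.20% and 1.54% of all genes. Diet averaged over both genotypes, a comparison added after the data were seen, called 1 member, *Mcl1*, against 1.10% of all genes. The genotype by diet interaction called 0 members and 0% of all genes. No member, and 6.13% of all genes, had an unadjusted p under 0.05 for it, and DESeq2 called 0.227% of all genes, none of them a member.

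The median log2 fold change of the 8 tested members was 0.20 on chow and 0.20 on HFS between genotypes, beside 0.00 and 0.01 over all genes. Between diets it was -0.09 in *Xbp1* fl/fl and -0.07 in *Xbp1* LKO, beside -0.01 and 0.00 over all genes. The libraries of the genotypes did not overlap for 5 members on chow and 4 on HFS, all higher in *Xbp1* LKO, and this was so for 31.3% and 26.1% of all genes in either direction. Over both diets together, *Bax* and *Bcl2l11* were the 2 members higher in all 5 *Xbp1* LKO than in all 6 *Xbp1* fl/fl libraries, a separation seen in 7.53% of all genes. The diets did not overlap for 6 members in *Xbp1* fl/fl (13.7% of all genes) and 3 in *Xbp1* LKO (31.1%). Over both genotypes together, 3 members separated the diets, *Mcl1* and *Bid* higher and *Bbc3* lower on HFS, against 1.48% of all genes.

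**Figure D1:**
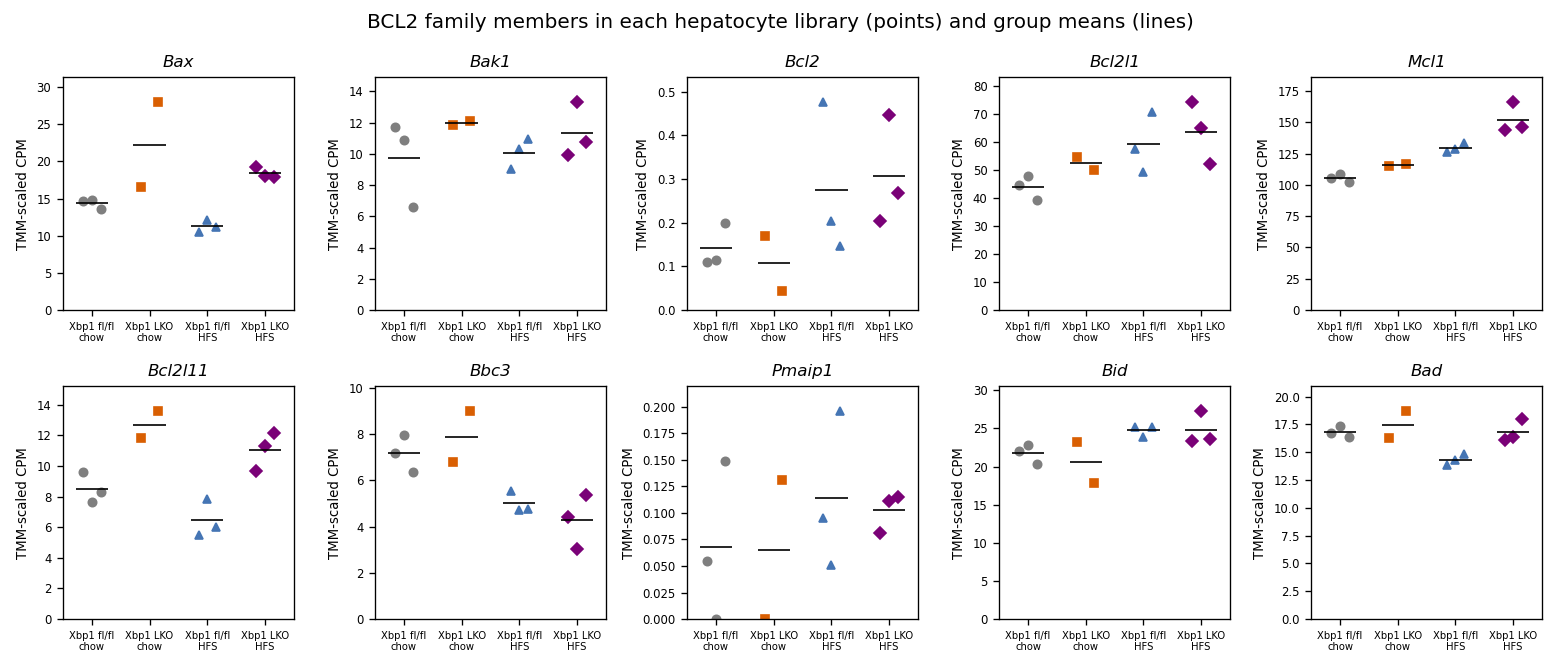
Level of each of the 10 members in each of the 11 libraries, as TMM-scaled CPM on a linear axis from 0 with a scale of its own in each panel. Points are libraries by group and lines are group means; *Bax* and *Bcl2l11* sit higher in both *Xbp1* LKO groups, *Mcl1* sits higher and *Bbc3* lower in both HFS groups, and *Bcl2* and *Pmaip1* stay under 0.5 CPM.

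**Figure D2:**
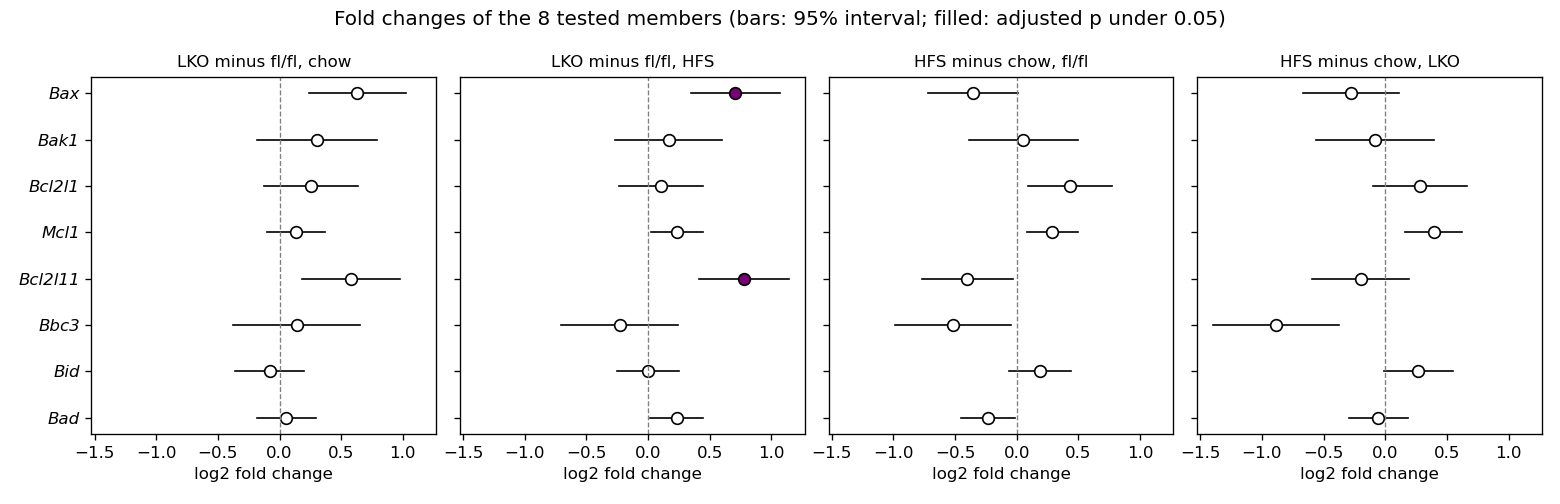
log2 fold changes of the 8 tested members in 4 comparisons, with 95% intervals as bars and filled points where the adjusted p was under 0.05. Filled points are *Bax* (0.71) and *Bcl2l11* (0.78) for genotype on HFS, and no others.

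The scaling matters for the direction of small changes. With library totals in place of TMM factors, the median log2 fold change of all genes between genotypes moved to 0.33 on chow and 0.27 on HFS. All-gene calls then split 2685 higher and 315 lower on chow, against 230 and 402 with TMM factors, and 1288 and 195 on HFS, against 256 and 287. With library totals, *Bax* was at 0.98 on chow and 0.97 on HFS, and *Bcl2l11* at 0.91 and 1.04. Relative to that median, *Bax* was at 0.65 on chow and 0.70 on HFS, and *Bcl2l11* at 0.58 and 0.78. Taking off the median removes the shift between the scalings, so these values lie near those with TMM factors by construction. Fold changes below use TMM factors.

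Levels of different genes were compared per kilobase of exon sequence. *Mcl1* was the most abundant member, at 30.1 to 48.6 CPM per kilobase, and it was above every other member in all 11 libraries. It made up 39.7% to 50.3% of the summed level of the 10 members. *Bcl2l1* followed with 8.57 to 16.2 and *Bax* with 6.65 to 17.7 CPM per kilobase. These 2 overlapped, *Bcl2l1* being the higher one in 8 of 11 libraries. *Bid* (5.03 to 7.68 CPM per kilobase) and *Bad* (5.42 to 7.31) were not separated, *Bid* being higher in 6 of 11 libraries, and their order was exchanged with the length of the longest coding transcript. *Bak1* was at 2.75 to 5.53, *Bbc3* at 1.44 to 4.24 and *Bcl2l11* at 0.68 to 1.69 CPM per kilobase. *Bad* was above *Bak1*, and *Bbc3* above *Bcl2l11*, in all 11 libraries, although their ranges over libraries met. *Pmaip1* and *Bcl2* were lowest, at 0 to 0.072 and 0.0048 to 0.052 CPM per kilobase. Whether the order of levels also holds for the proteins was not measured here.

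**Figure D3:**
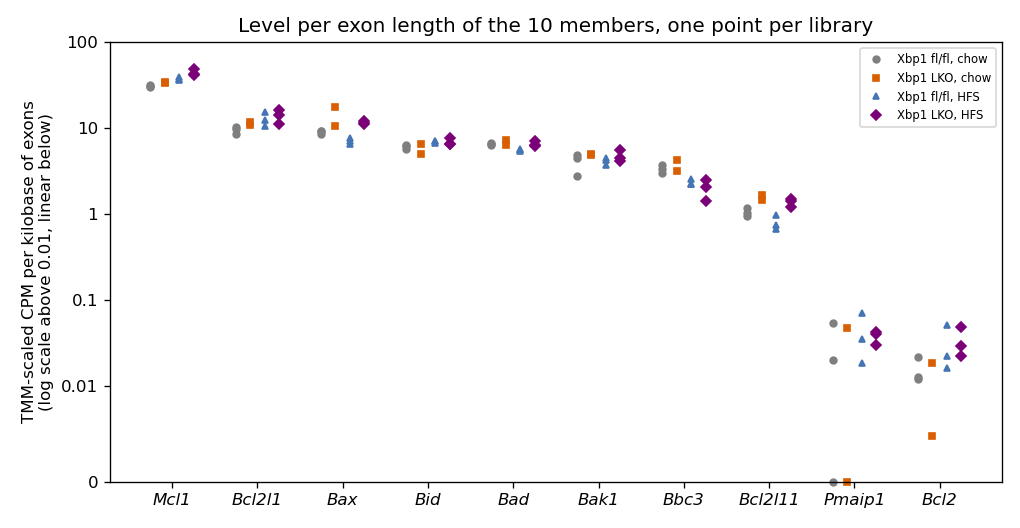
TMM-scaled CPM per kilobase of exons for the 10 members, ordered by their mean over libraries, on an axis that is logarithmic above 0.01 and linear below. Each point is a library and symbols mark the 4 groups; *Mcl1* lies at 30.1 and above, while *Pmaip1* and *Bcl2* lie under 0.1 in all 11 libraries.

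Of the effectors, *Bax* (ENSMUSG00000003873, minus strand of GRCm38 chr7:45461697-45466898) encodes the cytosolic protein that moves to mitochondria and oligomerizes there. Its level was 14.7, 14.7 and 13.6 CPM in chow-fed *Xbp1* fl/fl and 16.6 and 27.96 CPM in chow-fed *Xbp1* LKO. The HFS values were 10.5, 12.1 and 11.2 CPM in *Xbp1* fl/fl and 19.2, 18.0 and 17.9 CPM in *Xbp1* LKO. Every *Xbp1* LKO library was above every *Xbp1* fl/fl library, and chow-fed *Xbp1* LKO replicate 2 stood alone at the top. The HFS groups were tight, with a mean of 11.3 ± 0.82 CPM (SD, n = 3) for *Xbp1* fl/fl and of 18.4 ± 0.74 CPM (SD, n = 3) for *Xbp1* LKO. Each HFS library pooled 2 mice, so these SDs are between pools and not between single mice as on chow.

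For *Bax*, the genotype difference was a log2 fold change of 0.71 on HFS (SE 0.16, adjusted p = 0.037 by edgeR). Averaged over both diets it was 0.67 (SE 0.12, adjusted p = 0.0043). On chow it was 0.63 (SE 0.18) with an adjusted p of 0.071. That chow value rested on replicate 2 of the chow-fed *Xbp1* LKO group: without it the log2 fold change was 0.20 (adjusted p = 0.73), and without replicate 1 it was 0.96 (adjusted p = 0.0043). The HFS call was lost without any 1 of the 6 HFS libraries or without chow-fed *Xbp1* fl/fl replicate 2, where the log2 fold change was 0.66 to 0.76 and the adjusted p 0.050 to 0.13. The call averaged over both diets held without each of the 11 libraries in turn (log2 fold change 0.45 to 0.83). The difference between the genotype effects on the 2 diets was 0.08 on the log2 scale, with a 95% interval from -0.46 to 0.61. Between diets, *Bax* did not pass in either genotype (log2 fold change -0.35 in *Xbp1* fl/fl and -0.28 in *Xbp1* LKO).

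*Bak1* (ENSMUSG00000057789, minus strand of chr17:27019810-27029009), the effector that resides on mitochondria, was at 11.7, 10.9 and 6.62 CPM in chow-fed *Xbp1* fl/fl and at 11.9 and 12.1 CPM in *Xbp1* LKO on chow. With HFS feeding it was at 9.002, 10.3 and 10.97 CPM in *Xbp1* fl/fl and at 9.90, 13.3 and 10.7 CPM in *Xbp1* LKO. Only the chow groups did not overlap, by a margin smaller than the spread within chow-fed *Xbp1* fl/fl. The log2 fold change between genotypes was 0.30 on chow (95% interval -0.18 to 0.79) and 0.17 on HFS (-0.27 to 0.60). *Bak1* thus gave no call where *Bax* did, but the difference between the 2 effectors was not tested. *Ggnbp1* overlaps *Bak1* on the opposite strand with 163 to 426 counts, and whether counting used strand is not given in the sources used here.

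The sequence just before the transcription start was read for the 2 members called between genotypes, to show whether letters from stress elements occur there. The windows are from RefSeq on GRCm38.p6, 250 bases up to the start, and capitals mark CCACG or ACGTG on either strand. ACGTG is the core of the element that XBP1 binds, and CCACG is part of the endoplasmic reticulum stress element. The first line is the minus strand of chr7:45466899-45467148 and the second the plus strand of chr2:128125788-128126037.
Bax: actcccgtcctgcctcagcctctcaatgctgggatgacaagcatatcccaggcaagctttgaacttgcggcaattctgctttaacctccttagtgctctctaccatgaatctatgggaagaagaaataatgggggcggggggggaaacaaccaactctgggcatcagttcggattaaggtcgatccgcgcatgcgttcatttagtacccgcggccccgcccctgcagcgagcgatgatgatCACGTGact
Bcl2l11: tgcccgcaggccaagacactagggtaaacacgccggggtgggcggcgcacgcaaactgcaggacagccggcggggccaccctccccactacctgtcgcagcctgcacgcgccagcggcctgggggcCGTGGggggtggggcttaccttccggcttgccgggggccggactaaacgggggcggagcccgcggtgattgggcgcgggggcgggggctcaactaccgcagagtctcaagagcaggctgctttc

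In the *Bax* window the capitals are a CACGTG at positions -9 to -4, counted back from the start, which reads as ACGTG on both strands. In the *Bcl2l11* window they are CGTGG, which is CCACG on the other strand, at -124 to -120. *Bcl2l11* has a second RefSeq start, whose 250 bases held neither. RefSeq windows of 300 bases, 250 before and 50 after a start, were matched for 9 of 10 members, with 15 windows in all. CCACG occurred in 7 of these 15 windows, from 5 members, and ACGTG in 2 of the 15, from *Bax* and *Bbc3*. The 300-base *Bax* window held 4 ACGTG matches over both strands, where a CACGTG counts as 2, and 1 CCACG match. Some of these lie beyond the printed bases. The same letters occurred in 32.8% and 19.6% of the 32851 windows of all genes, and the 2 motifs can overlap as CCACGTG. The median GC content was 65.7% in the 15 member windows and 52.7% in all windows, and its part in these counts was not tested. TGATGNAAT, the composite element for C/EBP and ATF proteins, and the whole endoplasmic reticulum stress element occurred in none of the 15, and in 0.965% and 0.119% of all windows. A match describes letters in these windows and no binding was measured.

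Among the anti-apoptotic members, *Mcl1* (ENSMUSG00000038612, plus strand of chr3:95658788-95663176) encodes a short-lived protein that hepatocytes need to survive. It was at 105, 109 and 103 CPM in chow-fed *Xbp1* fl/fl and at 115 and 117 CPM in *Xbp1* LKO on chow. HFS-fed libraries were at 126, 129 and 133 CPM in *Xbp1* fl/fl and at 144, 166 and 147 CPM in *Xbp1* LKO. The 4 groups did not overlap at all, with HFS-fed *Xbp1* LKO highest. With its 1888 to 4468 counts per library, *Mcl1* was the most deeply counted member. Averaged over both genotypes, it was higher on HFS by 0.34 on the log2 scale (SE 0.07, adjusted p = 0.049). This call was marginal: it was lost without each of the 11 libraries in turn (adjusted p 0.060 to 0.14), while the log2 fold change stayed at 0.31 to 0.37. Within genotypes, the diet difference was 0.29 in *Xbp1* fl/fl (adjusted p = 0.35) and 0.39 in *Xbp1* LKO (adjusted p = 0.22 by edgeR, and 0.022 by DESeq2). Between genotypes it was 0.13 on chow (95% interval -0.10 to 0.37) and 0.23 on HFS (0.03 to 0.44), and neither passed (adjusted p = 0.54 and 0.22).

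*Bcl2l1* (ENSMUSG00000007659, minus strand of chr2:152780668-152831728), the BCL-XL gene, was at 44.5, 47.7 and 39.3 CPM in chow-fed *Xbp1* fl/fl and at 54.7 and 49.98 CPM in *Xbp1* LKO on chow. The values on HFS were 57.4, 49.3 and 70.5 CPM in *Xbp1* fl/fl and 74.1, 64.7 and 51.9 CPM in *Xbp1* LKO. Chow-fed *Xbp1* fl/fl was below all the other groups, which overlapped each other. The diet difference in *Xbp1* fl/fl was 0.43 on the log2 scale (95% interval 0.09 to 0.77, adjusted p = 0.43), and the genotype difference on HFS was 0.11 (-0.23 to 0.45). The gene has short and long splice forms with opposite known effects on death, and the counts do not separate them.

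*Bcl2* (ENSMUSG00000057329, minus strand of chr1:106538178-106714274), the founding member, was nearly absent from these libraries. It had 2, 2 and 4 counts in chow-fed *Xbp1* fl/fl, 4 and 1 in chow-fed *Xbp1* LKO, 10, 4 and 3 in HFS-fed *Xbp1* fl/fl and 5, 12 and 7 in HFS-fed *Xbp1* LKO. Over its 54 counts in 11 libraries no difference was detectable. Fitted without the filter, its lowest adjusted p in the 7 comparisons was 0.45.

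Of the BH3-only genes, *Bcl2l11* (ENSMUSG00000027381, plus strand of chr2:128126038-128162547) encodes BIM, which binds all the anti-apoptotic members and can activate BAX. Its level was 9.60, 7.63 and 8.31 CPM in chow-fed *Xbp1* fl/fl and 11.8 and 13.6 CPM in *Xbp1* LKO on chow. On HFS it was 5.48, 7.84 and 6.02 CPM in *Xbp1* fl/fl and 9.69, 11.3 and 12.2 CPM in *Xbp1* LKO. All 5 *Xbp1* LKO libraries were above all 6 *Xbp1* fl/fl libraries, the closest being 9.69 against 9.60 CPM across diets. The counts behind these levels were 115 to 317 per library.

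The genotype difference of *Bcl2l11* was 0.78 on the log2 scale on HFS (SE 0.17, adjusted p = 0.026 by edgeR) and 0.68 averaged over both diets (SE 0.12, adjusted p = 0.0043). On chow it was 0.58 (SE 0.18, adjusted p = 0.099), and without chow-fed *Xbp1* LKO replicate 2 it was 0.47. The HFS call was lost without HFS-fed *Xbp1* fl/fl replicate 1 or 3 or HFS-fed *Xbp1* LKO replicate 2 or 3 (log2 fold change 0.67 to 0.76, adjusted p 0.090 to 0.11). The call averaged over both diets held without each of the 11 libraries in turn (0.63 to 0.76). The genotype effects on the 2 diets differed by 0.20, with a 95% interval from -0.34 to 0.74. Between diets the log2 fold change was -0.40 in *Xbp1* fl/fl (adjusted p = 0.51) and -0.20 in *Xbp1* LKO (adjusted p = 0.68).

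*Bcl2l11* had the smallest p over the 4 groups of all members (adjusted p = 0.018), with *Bax* (0.018) and *Mcl1* (0.021) next, by edgeR's quasi-likelihood test. The share of all genes passing this test is not given here, so these values only rank the members. The genes whose log2 CPM followed *Bcl2l11* most closely over the 11 libraries were *Csrnp2* (Pearson r = 0.954), *Id3* (r = 0.952) and *Emp2* (r = 0.934). They were picked from all tested genes for this likeness, and the libraries share their groups, so the values are descriptions.

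*Bbc3* (ENSMUSG00000002083, plus strand of chr7:16308393-16318205) encodes PUMA, a target of p53 that is also induced under endoplasmic reticulum stress. It was at 7.17, 7.98 and 6.37 CPM in chow-fed *Xbp1* fl/fl and at 6.78 and 9.001 CPM in *Xbp1* LKO on chow. After HFS feeding it was 5.53, 4.73 and 4.75 CPM in *Xbp1* fl/fl and 4.399, 3.05 and 5.37 CPM in *Xbp1* LKO. All 6 HFS libraries were below all 5 chow libraries, and the genotypes overlapped on both diets. The diet difference was -0.52 on the log2 scale in *Xbp1* fl/fl (95% interval -0.99 to -0.05, adjusted p = 0.51) and -0.89 in *Xbp1* LKO (-1.40 to -0.37, adjusted p = 0.20 by edgeR, 0.044 by DESeq2). Averaged over both genotypes it was -0.70 (SE 0.16) and missed the threshold (adjusted p = 0.065). *Bbc3* and *Bcl2l11*, both BH3-only genes tied to stress, thus differed in which factor separated their libraries, which was not tested as a difference between the genes.

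*Pmaip1* (ENSMUSG00000024521, on chromosome 18), the NOXA gene, had 0 to 4 counts per library and 22 in all. It was at 0 in chow-fed *Xbp1* fl/fl replicate 2 and in chow-fed *Xbp1* LKO replicate 1, where 0 counts allow up to 0.173 and 0.128 CPM (3 counts). No fold change is given.

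*Bid* (ENSMUSG00000004446, minus strand of chr6:120891930-120916853), whose protein is cut by caspase-8 to link death receptors to mitochondria, was at 22.1, 22.8 and 20.3 CPM in chow-fed *Xbp1* fl/fl and at 23.2 and 17.9 CPM in *Xbp1* LKO on chow. In the HFS groups it was at 25.2, 23.9 and 25.2 CPM in *Xbp1* fl/fl and at 23.3, 27.3 and 23.6 CPM in *Xbp1* LKO. The genotypes overlapped on both diets, and the HFS libraries were all above the chow libraries, by as little as 23.3 against 23.2 CPM. The log2 fold change between genotypes was -0.08 on chow (95% interval -0.36 to 0.20) and 0.00 on HFS (-0.25 to 0.25), and its sign changed with the scaling. Averaged over both genotypes, the diet difference was 0.23 (adjusted p = 0.24). *Bcl2l13* overlaps *Bid* on the opposite strand with 1070 to 1773 counts, more than *Bid* itself.

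*Bad* (ENSMUSG00000024959, plus strand of chr19:6941861-6951899), whose protein is kept inactive by phosphorylation downstream of insulin and growth factors, was at 16.8, 17.4 and 16.3 CPM in chow-fed *Xbp1* fl/fl and at 16.3 and 18.7 CPM in *Xbp1* LKO on chow. Under HFS it was at 13.9, 14.3 and 14.8 CPM in *Xbp1* fl/fl and at 16.1, 16.4 and 18.0 CPM in *Xbp1* LKO. HFS-fed *Xbp1* fl/fl was below all the other groups. The genotype difference on HFS was 0.23 on the log2 scale (95% interval 0.01 to 0.45, adjusted p = 0.25) and on chow 0.06 (-0.18 to 0.30). *Gpr137* overlaps *Bad* on the opposite strand with 303 to 575 counts.

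Ratios within a library do not depend on its scaling, and are given as descriptions without a test. The ratio of *Bax* to *Mcl1*, in CPM per kilobase, was 0.303, 0.293 and 0.288 in chow-fed *Xbp1* fl/fl and 0.312 and 0.518 in *Xbp1* LKO on chow. On HFS it was 0.180, 0.204 and 0.181 in *Xbp1* fl/fl and 0.290, 0.235 and 0.265 in *Xbp1* LKO. It was thus higher in *Xbp1* LKO on both diets and lower on HFS within each genotype, and HFS-fed *Xbp1* LKO lay within or below the range of chow-fed *Xbp1* fl/fl. On HFS the mean ratio of the *Xbp1* fl/fl libraries was 0.189 ± 0.014 (SD, n = 3), and that of the *Xbp1* LKO libraries was 0.263 ± 0.028 (SD, n = 3).

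The ratio of *Bax* to *Bcl2l1* was 0.755 to 1.00 in HFS-fed *Xbp1* LKO and 0.461 to 0.715 in HFS-fed *Xbp1* fl/fl, without overlap, and on chow it was 0.881 and 1.63 against 0.898 to 1.01. The summed level of the 7 pro-apoptotic members over that of the 3 anti-apoptotic members was 0.714 to 0.910 in the 5 chow libraries and 0.507 to 0.619 in the 6 HFS libraries, without overlap. Between genotypes this summed ratio overlapped on both diets. The separation by diet was also present with the longest coding transcript as length (0.861 to 1.09 against 0.598 to 0.771) and on plain CPM (0.505 to 0.595 against 0.358 to 0.442). *Mcl1*, the most abundant member, carries much of the denominator.

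**Figure D4:**
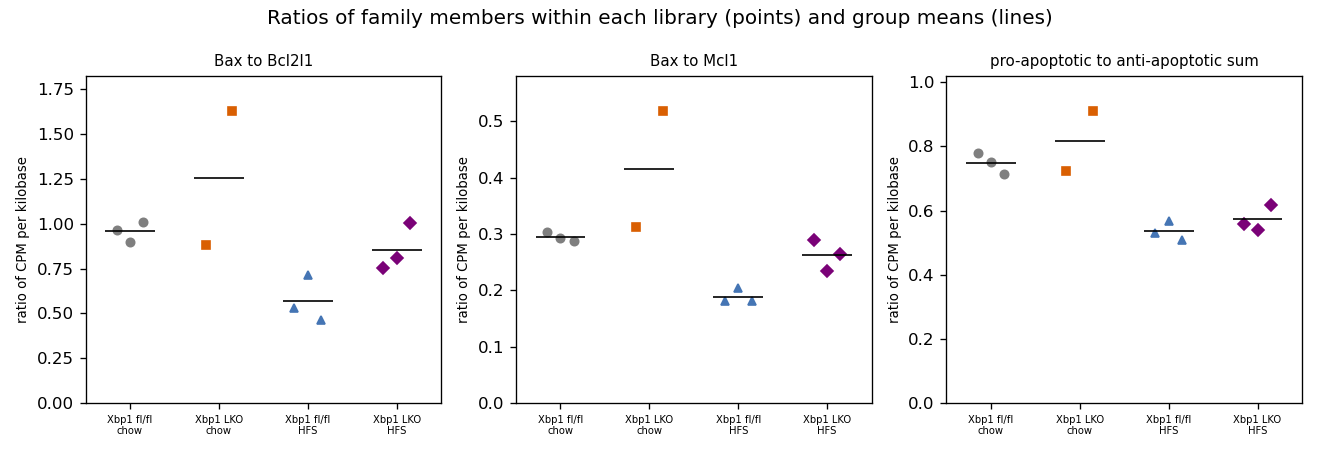
Ratios of CPM per kilobase within each of the 11 libraries (points) with group means (lines), on linear axes from 0, for *Bax* to *Bcl2l1*, *Bax* to *Mcl1* and the summed pro-apoptotic to the summed anti-apoptotic members. The summed ratio is at 0.507 to 0.619 in HFS libraries and at 0.714 to 0.910 in chow libraries.

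Of 15 other genes of the family or near it, 10 were tested and 0 were called in any of the 4 comparisons of genotype or diet. *Bcl2l10*, *Bcl2a1a* and *Bcl2a1d* had 0 counts in every library, and *Bcl2a1b* at most 3. The *Bcl2a1* genes are near-identical copies between which reads could not be assigned with confidence. The median log2 fold change of the 10 tested genes was 0.01 on chow and 0.07 on HFS between genotypes. Of 23 tested regulators of the family, such as kinases, 14-3-3 proteins and ubiquitin enzymes, 0 were called in the same comparisons.

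Among genes that act after mitochondrial permeabilization, 0 were called on HFS or between diets. *Birc3*, an inhibitor of apoptosis protein, fell in *Xbp1* LKO on chow, with a log2 fold change of -0.78 (SE 0.17, adjusted p = 0.026 by edgeR). On HFS its value was -0.30 (adjusted p = 0.33).

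Of 14 stress-response transcription factors and targets, 5 rose in *Xbp1* LKO on chow and 2 on HFS, and 0 fell. *Ddit3*, which encodes CHOP, a factor of the unfolded protein response linked to apoptosis, was at 4.52, 5.90 and 6.67 CPM in chow-fed *Xbp1* fl/fl and at 23.6 and 132 CPM in *Xbp1* LKO on chow. The HFS libraries had 5.10, 2.95 and 4.996 CPM in *Xbp1* fl/fl and 15.8, 13.5 and 44.5 CPM in *Xbp1* LKO. The genotypes did not overlap, and chow-fed *Xbp1* LKO replicate 2, the library with the highest *Bax* and *Bcl2l11*, was also the highest for *Ddit3*. Its log2 fold change was 3.77 on chow (SE 0.66, adjusted p = 0.0098) and 2.50 on HFS (SE 0.62, adjusted p = 0.048). *Atf3*, an early stress factor, gave 4.80 (SE 0.72, adjusted p = 0.0052) and 3.09 (SE 0.69, adjusted p = 0.030), and *Trib3*, a target of ATF4 and CHOP, gave 2.19 on chow (SE 0.47, adjusted p = 0.023). The spread of *Ddit3* within *Xbp1* LKO was wider than that of *Bax* or *Bcl2l11*. On HFS, *Bax* was at 17.9 to 19.2 CPM where *Ddit3* was at 13.5 to 44.5 CPM. Whether *Ddit3* is related to *Bax* or *Bcl2l11* apart from their shared difference between genotypes was not tested. Of 14 tested immediate early genes, which respond to cell isolation as well as to signals in the liver, 1 rose on chow (*Myc*, log2 fold change 3.02, SE 0.77, adjusted p = 0.049) and 0 on HFS.

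**Figure D5:**
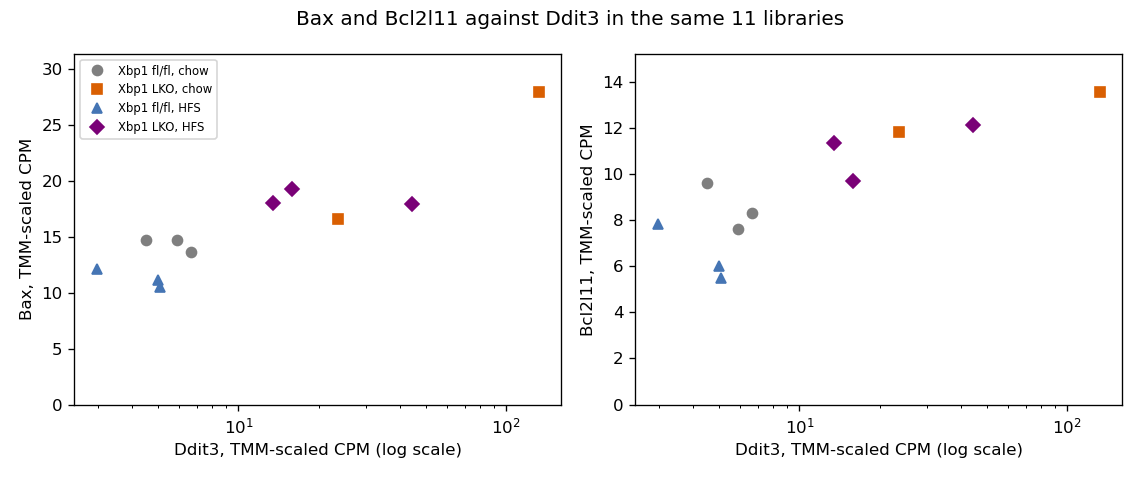
*Bax* (left) and *Bcl2l11* (right) in TMM-scaled CPM on linear axes from 0, against *Ddit3* in the same library on a logarithmic axis, with 1 point per library and symbols for the 4 groups. The *Xbp1* LKO libraries lie to the upper right, with chow-fed *Xbp1* LKO replicate 2 at 132 CPM of *Ddit3* and 27.96 CPM of *Bax*. No relation between the genes was tested.

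Other measures also moved with genotype in the libraries where *Bax* and *Bcl2l11* were higher. Chow-fed *Xbp1* LKO replicate 2 had the lowest summed hepatocyte markers (34285 CPM). Of those 10 genes, 3 fell in *Xbp1* LKO on chow and 2 on HFS, and 0 rose. Averaged over both diets, 7 fell and 1 rose. The gene that rose was *Cyp3a11*, which encodes a drug-metabolizing cytochrome P450 and is named after its value was seen (log2 fold change 0.85, SE 0.25, adjusted p = 0.044). It was at 4144 to 4715 CPM in *Xbp1* fl/fl and 5439 and 7365 CPM in *Xbp1* LKO on chow, and at 1009 to 2357 and 2070 to 4802 CPM on HFS. Its close relatives in the *Cyp3a* family can share reads with it. The 10 macrophage markers summed to 17.9 to 79.5 CPM in chow-fed *Xbp1* fl/fl and 21.2 and 30.8 CPM in chow-fed *Xbp1* LKO, and to 34.8 to 50.9 and 50.4 to 89.7 CPM on HFS. The 8 endothelial markers summed to 37.0 to 90.7 and 23.0 to 29.6 CPM on chow, and to 74.0 to 124 and 60.7 to 92.7 CPM on HFS, in the same order. The 8 stellate cell markers summed to 13.1 to 40.2 and 8.75 to 9.09 CPM on chow, and to 22.4 to 39.9 and 28.6 to 60.2 CPM on HFS. No marker of these 3 types was called between genotypes on either diet. Averaged over both diets, 2 endothelial markers fell in *Xbp1* LKO, where 11.9% of all genes were called. Averaged over both genotypes, the comparison in which *Mcl1* was called, 1 endothelial and 2 stellate cell markers rose on HFS, and 1.10% of all genes were called. In that comparison all 8 endothelial, all 7 tested stellate cell and all 10 macrophage markers had a positive log2 fold change, with medians of 1.14, 1.45 and 0.52. Cholangiocyte, lymphocyte and neutrophil markers summed to at most 16.3, 6.63 and 3.87 CPM in any library, and of the 2 tested in each list only *Sox9* was called on either diet (log2 fold change -1.54 on chow, adjusted p = 0.017, named after its value was seen). Their defining genes were at or near 0: *Krt19* had 0 to 4 counts, *Cd3e* 0 to 2, *Cd79a* 0 to 2 and *S100a8* 0 to 36. The part of these cells, and of the lower hepatocyte markers, in the differences of *Bax*, *Bcl2l11* and *Mcl1* was not tested.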

How the data were processed

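Hepatocytes were isolated, purified on Percoll and sequenced as single-end 50 bp reads, 1 library per sample. The deposited values are whole-number counts per Ensembl gene, neither normalized nor filtered. For how the authors made them the sources differ: the paper's methods name kallisto and tximport, and the submitters' processing notes name cutadapt 1.13, STAR, HTSeq 0.6.1p1 and DESeq2 on mm10. The library kit is given as total RNA in the labels and as stranded mRNA in the methods. Counts of genes with many near-identical copies may be unreliable in either.

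Symbols and exon lengths came from GENCODE M21 (GRCm38), which held 54165 of the 54232 identifiers. *Ddit3* also has another, shorter gene model, whose counts were not used. Groups came from the sample labels. CPM with TMM factors, and all tests, are from edgeR 4.0.16 in R 4.3.3, after a filter on low counts (filterByExpr, minimum 10). One quasi-likelihood fit held all 11 libraries with a term for each of the 4 groups, and its contrasts were genotype on each diet, diet in each genotype, their averages and the interaction, with Benjamini-Hochberg adjustment over 13303 genes and a threshold of 0.05. The method was tested on simulated data. DESeq2 1.42.0, other scalings, other filters, smaller fits, a replicate block and leaving out each library were alternatives. The test over the 4 groups together came from the same fit and was used to rank the members. Lists were described by counts and medians, without a set test. All members are named. Other listed genes are named if called in a comparison of 2 groups, at most 3 per list and comparison; a zero or overlapping partner is named where it bears on a member. Members and lists were chosen with earlier results of these data known. Replicate numbers did not pair the samples, and p-values measure the spread between libraries. These libraries are pools of 2 mice on HFS and single mice on chow, and the fit shares 1 spread per gene between them. A result for 1 listed gene is not reported here.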

Additional observations from a re-analysis of the deposited data

How the results depend on the processing

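Averaged over both diets, *Bax* and *Bcl2l11* were called under all 18 alternatives each, and on HFS under 11 and 15 of 19. The number of members called on chow, 0, was 1 (*Bax*) with DESeq2, 4 with library totals and 1 (*Bax*) without the filter, where 8.17%, 22.6% and 5.79% of all genes were called. It was 0 to 1 on leaving out each library (0.498% to 5.48% of all genes), the 1 being *Bax* without chow-fed *Xbp1* LKO replicate 1. On HFS, 2 became 4 with library totals (11.1% of all genes), 1 (*Bcl2l11*) with a replicate block that uses the other numbering (3.22%), and 0 to 2 on leaving out each library (1.40% to 4.85%). Averaged over both diets, 2 became 7 with library totals, where 43.6% of all genes were called. For diet in *Xbp1* LKO, 0 became 2 with DESeq2 and 1 (*Bbc3*) without the filter, where 1.54% and 2.78% of all genes were called. For diet averaged over both genotypes, 1 became 2 (*Mcl1* and *Bbc3*) with DESeq2 (3.70%), 0 with library totals (1.14%), 2 (*Bcl2l1* and *Bbc3*, not *Mcl1*) without the filter (3.86%) and 0 with either replicate block (1.26% with the titles' numbers). It was 0 to 1 on leaving out each library (0.433% to 2.01%), and the 1 was not *Mcl1* but *Bax* without chow-fed *Xbp1* LKO replicate 1 (adjusted p = 0.028 by edgeR) or *Bbc3* without HFS-fed *Xbp1* LKO replicate 3 (0.044). In the other numbering, chow-fed *Xbp1* LKO replicate 2, so named by its title, takes the number 3 that its deposited counts carry, and any further library of that group was not analysed here. Replicate numbers did not pair the samples (mean correlation of deviations -0.0087 over 15 pairs), and the block changed no other count of members called. Leaving 1 chow-fed *Xbp1* LKO library assumes that it varies like the other groups. The causes were not tested.

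Signs changed only for values that the report does not call. With library totals, the log2 fold change between genotypes of *Bid* was 0.24 on chow, 0.26 on HFS and 0.25 averaged, that of *Bbc3* 0.027 on HFS and 0.25 averaged, and the interaction of *Bax* was -0.0099. *Bid* on HFS was 0.0077 without the filter, 0.0078 with a stricter filter and 0.0026 with only the groups compared. *Bak1* for diet averaged over both genotypes was 0.028 with the replicate block. On leaving out each library, the genotype difference on chow ranged from -0.081 to 0.33 for *Bbc3*, -0.28 to 0.094 for *Bid* and -0.048 to 0.15 for *Bad*. On HFS it ranged from -0.014 to 0.25 for *Bcl2l1* and -0.077 to 0.043 for *Bid*. Averaged, it ranged from -0.16 to 0.052 for *Bbc3* and -0.14 to 0.047 for *Bid*. The diet difference ranged from -0.16 to 0.21 for *Bak1* in *Xbp1* fl/fl and, in *Xbp1* LKO, from -0.61 to 0.16 for *Bax*, -0.21 to 0.013 for *Bak1* and -0.16 to 0.054 for *Bad*. Averaged over both genotypes it ranged from -0.12 to 0.064 for *Bak1*. The interaction ranged from -0.26 to 0.51 for *Bax*, -0.29 to 0.080 for *Bak1* and -0.095 to 0.28 for *Bid*.

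Levels per kilobase and ratios depend on the length used. With the longest coding transcript, the mean level over libraries moved by more than 1 SD for *Bax* (14.6 CPM per kilobase), *Bcl2l1* (21.4), *Bcl2l11* (1.87), *Bid* (10.6) and *Bad* (10.6). The mean ratio of *Bax* to *Bcl2l1* was 0.302 on plain CPM. That of *Bax* to *Mcl1* was 0.400 with the longest coding transcript and 0.129 on plain CPM. The summed ratio was 0.793 and 0.457. Depth limits *Bcl2* and *Pmaip1*, with at most 12 and 4 counts in a library.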

Other observations

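Genes around the family that no comparison of 2 groups called were called for genotype averaged over both diets, where 11.9% of all genes were, and are named after their values were seen. They were 1 of the 10 tested other family genes and, among the 23 tested regulators, 1 higher and 1 lower. These shares are not above that of all genes. *Bik*, a BH3-only gene, was lower in *Xbp1* LKO, at 2.79 to 6.16 CPM in 5 libraries against 5.52 to 8.65 CPM in 6 *Xbp1* fl/fl libraries (log2 fold change -0.63, SE 0.18, adjusted p = 0.047 by edgeR). It thus moved against *Bcl2l11*, the BH3-only gene called in the same comparison, and its libraries overlapped between genotypes. *Ywhaz*, a 14-3-3 protein gene, was at 45.2 to 55.0 CPM in *Xbp1* LKO and at 36.6 to 40.8 CPM in *Xbp1* fl/fl libraries (0.34, SE 0.07, adjusted p = 0.0099), and 14-3-3 proteins are known to hold phosphorylated BAD in the cytosol. *Mapk8*, the JNK1 gene, was at 17.4 to 19.7 CPM against 19.3 to 28.9 CPM (-0.29, SE 0.08, adjusted p = 0.045).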
